A study of Mus musculus with 9 samples.

Results

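The genes described here gave the 200 highest signals in the lateral nasal gland of wild-type B6 mice, out of 12393 genes that the array measured with a probe set of their own. All probe sets other than controls were ranked by their mean signal over 4 arrays, a gene was represented by its highest probe set, and the first 200 gene symbols were taken as members. The members were chosen by these signals, which are therefore given as a description and carry no test.

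The study measured RNA from the lateral nasal gland on 9 Affymetrix arrays, to which 3 kinds of male mice aged 2 to 3 months contributed. The 4 arrays used here came from wild-type C57BL/6 (B6) males, and every array held RNA pooled from the glands of 10 mice. The other 5 arrays came from wild-type 129/Sv males (2 arrays) and from Cyp2g1-null males (3 arrays), which lack the olfactory cytochrome P450 Cyp2g1 and have a mixed background of the 129/Sv and B6 strains. They served here only to show where the members stood on other arrays. The labels name no treatment and no array batch or scan date, and they do not say whether the pools came from separate litters, so the spread over pools is a spread between these samples. In whole tissue, fewer cells of a type and less RNA per cell cannot be told apart.

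The lateral nasal gland is a large serous gland of the rodent nose that delivers a protein-rich fluid to the nasal cavity. Such a gland cell makes proteins on ribosomes bound to the endoplasmic reticulum, threads them through the Sec61 channel, removes their signal peptide, folds and glycosylates them, and exports them through the Golgi apparatus. Odorant-binding proteins, small lipocalins that carry hydrophobic odorants through mucus, and secretoglobins, small dimeric proteins that include the androgen-binding proteins, are familiar products of nasal glands. The transcription factor Xbp1 maintains the capacity of the endoplasmic reticulum in secretory cells.

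The members ran in mean signal from 20974 for Ap3s1, an adaptor subunit of vesicle traffic, to 161829 for Obp2a, an odorant-binding lipocalin. The lowest member lay 30.5 times above the median gene, whose signal was 687. The members held 16.9% ± 0.466 of the total signal of all probe sets (SD, n = 4 pools), with 16.5%, 16.6%, 17.5% and 17.1% in pools 1 to 4. The 10 highest held 2.54% ± 0.121 and the 50 highest 7.97% ± 0.349. In each pool, between 922 and 950 probe sets, or 4.07% to 4.2% of all, together held 50% of the signal. Signal depends on how well a probe set binds its transcript as well as on how much transcript there is, so the ranking is one of signals and not of transcript numbers. Of the 114 members with more than 1 probe set, 89 had another probe set more than 2-fold dimmer, and the median ratio of highest to lowest was 7.4.

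By function, ribosomal and endoplasmic reticulum proteins were the named classes with the most members. Ribosomal proteins made up 35 members, proteins of the endoplasmic reticulum and its stress response 32, secreted proteins 23, mitochondrial proteins 21 and metabolic enzymes 8. The other 81 members included 12 cytosolic translation factors and 7 genes of ion and water channels and pumps. Ribosomal proteins held 4.38% ± 0.145 of the total signal, secreted proteins 2.85% ± 0.288, proteins of the endoplasmic reticulum 2.12% ± 0.131, mitochondrial proteins 1.34% ± 0.0279 and metabolic enzymes 0.596% ± 0.0177 (SD, n = 4 pools). The 81 members outside these classes held more than any of them, at 5.62% ± 0.144. The ribosomal lead depended on probe sets that can match several transcripts. Without those, the ribosomal class had 6 members and 0.538% of the signal, against 2.07% secreted, 1.46% endoplasmic reticulum and 0.912% mitochondrial. The share of each class that reached the list differed widely, from 35 of 49 ribosomal genes (71.4%) and 32 of 145 endoplasmic reticulum genes (22.1%) to 23 of 268 secreted proteins (8.58%), 21 of 275 mitochondrial genes (7.64%) and 8 of 306 metabolic enzymes (2.61%).

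**Figure D1:**
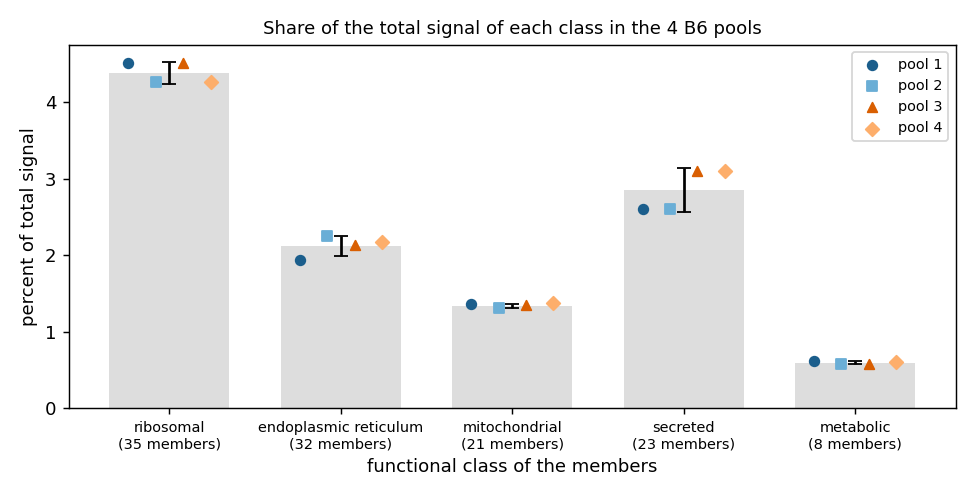
Percent of each pool's total signal held by the members of each functional class (points are the 4 B6 pools, bars their mean with the SD as error bar). Secreted proteins sat at 2.6% and 2.61% in pools 1 and 2 and at 3.1% in both other pools, and the ribosomal share lay between 4.26% and 4.51%.

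The 4 genes given as markers of the gland were all members. Obp1a ranked 4 with a mean signal of 143871, Xbp1 ranked 21 with 78077, Scgb1b27 ranked 24 with 76801 and Cyp2f2 ranked 28 with 70957. Of 8 markers listed for the gland's secretory cells, which include these 4, 6 were members, and all 8 lay above the median gene. The exceptions to membership were Lcn3, another lipocalin, with a mean of 2748, and Car6, a secreted carbonic anhydrase, which read 388 and 594 in pools 1 and 2 and 8018 and 7401 in pools 3 and 4. Markers of skeletal muscle and T cells were all below the median gene. So were the 3 erythroid markers with a probe set of their own, but probe sets shared by several globin genes lay above the lowest member, the brightest for alpha globin at 33643 and that for beta globin at 24359. Olfactory neuron markers were present at low signal in unequal amounts (summed signal 8524, 2344, 4130 and 5958 in pools 1 to 4).

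The pools fell into pairs over the members, mainly through a few of them. Over the 200 members, log2 signals correlated at r = 0.946 between pools 1 and 2 and at 0.983 between pools 3 and 4, but at 0.768 to 0.806 across those pairs. Without the 3 members that varied most, Mup5, Bpifa1 and 2310057J18Rik, the values across the pairs were 0.927 to 0.963, a range that includes the 0.948 between pools 1 and 2, and pools 3 and 4 gave 0.985. Over all 12393 genes the 6 values were 0.913 to 0.921. These are correlations across genes, which share arrays and a scaling and are not independent replicates. No label separates pools 1 and 2 from pools 3 and 4.

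Among the secreted proteins, odorant-binding lipocalins and defence proteins of mucus headed the list. Several of the highest read alike in all 4 pools, although the median coefficient of variation (SD over mean) of the secreted class, at 17.7%, was the largest of the 5 classes. Obp2a read 149537, 156346, 177173 and 164262 in pools 1 to 4, the highest mean on the array. Obp1a read 134209, 141431, 150146 and 149696. Both odorant-binding proteins were lowest in pool 1 and highest in pool 3, but the pools lay within 1.19-fold of each other for Obp2a. Wfdc18, which carries the four-disulfide core of whey acidic protein, read 138158, 137826, 161398 and 148937 and ranked 3. Bpifb5, a member of the family of lipid-binding proteins that includes the palate, lung and nasal epithelium proteins, read 110733, 115390, 115670 and 102397. Dnase1, the secreted endonuclease that degrades DNA outside cells, read 109506, 101712, 126657 and 111354. None of these 5 genes had a coefficient of variation above 9.3%. Gm14743, a gene model without an assigned function, ranked 5 at 135402 ± 9073 (SD, n = 4) and lies 2 protein-coding genes away from Obp1a on chromosome X in the RefSeq annotation of GRCm38.p6.

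**Figure D2:**
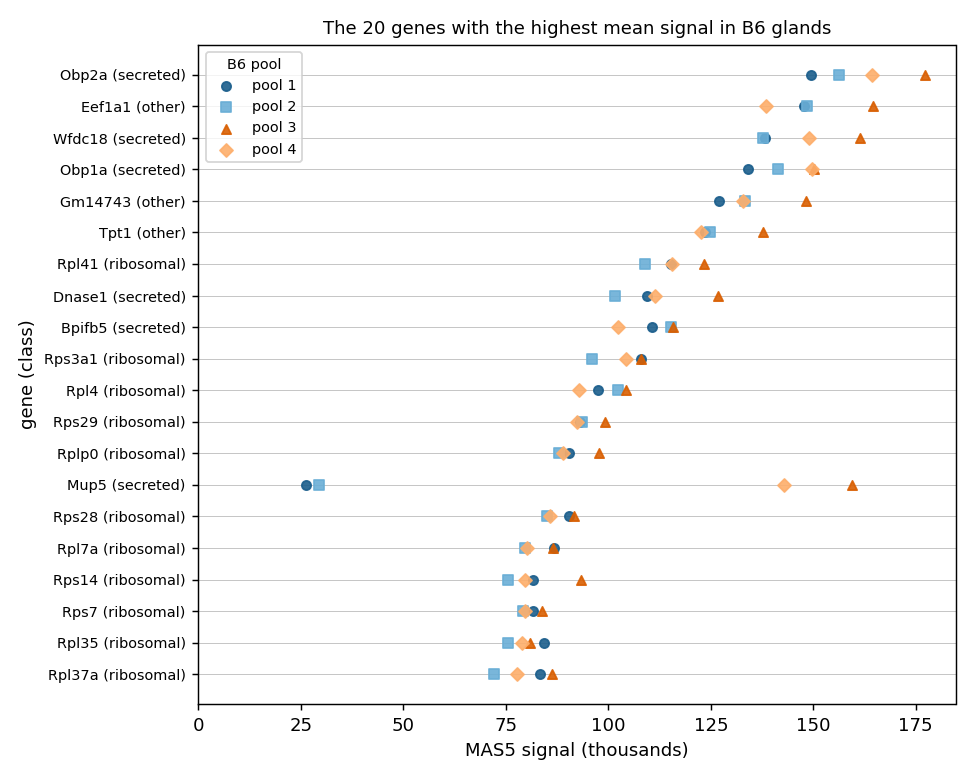
Deposited signal (linear scale) of the 20 genes with the highest mean, in rank order, with a mark for each of the 4 B6 pools. The pools lie close together for all genes except Mup5, for which pools 1 and 2 read 26292 and 29518 and pools 3 and 4 read 159511 and 142899.

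Several secreted proteins varied far more. Mup5, a major urinary protein of the lipocalin family that binds pheromones, read 26292, 29518, 159511 and 142899, so that the mean of pools 3 and 4 was 5.42 times that of pools 1 and 2. The Mup genes are near-identical copies, so it is uncertain which of them this probe set reads. The gene 2310057J18Rik, listed in RefSeq with the synonym Leg1, read 607, 958, 49675 and 45604, with a ratio of 60.9. In both genes pools 1 and 2 were close to each other and far below pools 3 and 4, and 2310057J18Rik would not have been a member on pools 1 and 2 alone. Car6 was low in the same pools. The secreted members as a whole held 2.6%, 2.61%, 3.1% and 3.1% of the signal. Without Mup5, 2310057J18Rik and Bpifa1 the other 20 held 2.49%, 2.54%, 2.64% and 2.64%. Probe sets shared by the alpha globin genes, transcripts of red blood cells, also differed between these pools, with 27347, 24766, 41326 and 41131 for the brightest of them. Their part in the result was not tested.

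Both secretoglobins varied between pools. Scgb1b27 read 58361, 79721, 72756 and 96367. Scgb2b27, its neighbour on chromosome 7 with no protein-coding gene between them, read 35272, 52039, 59237 and 73594. Pool 1 was lowest and pool 4 highest for both, while pools 2 and 3 were in opposite order, and the highest pool was 1.65 times the lowest for Scgb1b27 and 2.09 times for Scgb2b27. Klk1, tissue kallikrein, a serine protease of gland secretions, read 40768, 40803, 58538 and 61402. Pnliprp1, a relative of pancreatic lipase, read 33200, 35354, 50163 and 46133. Both of these enzymes were lower in pools 1 and 2 than in pools 3 and 4.

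The genes of antibody export ran the other way. Igha, the constant region of immunoglobulin A, read 75969, 73239, 52711 and 42437. Pigr, the receptor that carries polymeric immunoglobulin A across the epithelium into the secretion, read 70993, 63907, 52552 and 48225. Pools 1 and 2 were above pools 3 and 4 for both, and the ratio of the mean of pools 3 and 4 to that of pools 1 and 2 was 0.638 for Igha and 0.747 for Pigr. Jchain, which joins the immunoglobulin A dimer, was likewise higher in pools 1 and 2, at 15899, 14648, 8410 and 5861. The summed signal of the 7 listed markers, none of them a member and 3 of them above the median gene, was 18737, 17267, 10847 and 7992, most of it from Jchain. Of the other 6 markers, only Cd79b, at 275, 497, 238 and 174, also had pools 1 and 2 above pools 3 and 4, and Ighm read 1206, 770, 831 and 879. Probe sets shared by several immunoglobulin kappa genes were not ranked but lay above the lowest member. They too were higher in pools 1 and 2 than in pools 3 and 4, with 42815, 40719, 35905 and 28651 for the brightest. The part of plasma cell number in the Igha and Pigr signals was not tested.

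Antimicrobial proteins were also part of the mucosal defence group, which held 13 members and 1.33% ± 0.0355 of the signal. Ltf, the iron-binding protein lactoferrin, read 50657, 53860, 57766 and 52558, and Lyz1, a lysozyme that cleaves bacterial cell walls, read 42463, 34568, 37930 and 41911. Lyz2, the neighbouring lysozyme gene, which is strongly expressed in macrophages, was a member at 24201 ± 1804 (SD, n = 4). Dmbt1, a scavenger receptor protein that agglutinates bacteria, read 47889, 48638, 39914 and 33075. Reg3g, a lectin that kills Gram-positive bacteria, read 32277, 29630, 32272 and 36840. Pip, the prolactin-inducible protein of exocrine secretions, read 45188, 39085, 28986 and 35860. Clu, clusterin, a chaperone that acts outside cells, read 32176, 25509, 21348 and 22192. Like Igha and Pigr, both were higher in pools 1 and 2 than in pools 3 and 4, with ratios of 0.769 and 0.755. The pool orders of the group differed, with Dmbt1 lower in pools 3 and 4 and Ltf highest in pool 3. Bpifa1, a surfactant-like airway protein whose gene lies 3 protein-coding genes from Bpifb5, read 29108, 7655, 29161 and 49253. Pool 2 alone was low for Bpifa1. Bpifa1 was also 1 of 5 members that were among the 200 of no array from the other mice, together with Ap3s1, Col1a1, H2az1 and Nucb2. The secreted members also included Col1a1 and Col1a2, the chains of type I collagen made by fibroblasts, at 21721 and 31473.

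The secretory apparatus behind these products was itself prominent. The endoplasmic reticulum members were spread over every step of the pathway, with 10 members in translocation and signal peptide cleavage (of 26 genes measured), 7 in chaperones and glycoprotein folding (of 28), 3 in disulfide and prolyl isomerases (of 24), 1 in the oligosaccharyltransferase (of 12), 4 in transport to the Golgi (of 32) and 7 in the stress response and degradation (of 23). The lowest medians of all measured genes in these groups were 4026 for the isomerases and 7071 for the chaperones, still above the median gene.

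At the entry to the endoplasmic reticulum, the members differed in how steady they were, from 1.75% variation for Spcs1 to 16.2% for Sec61b. Spcs1, a subunit of the signal peptidase, read 40292, 40346, 39755 and 41443. Tram1, which assists the passage of nascent chains through the membrane, read 38966, 42060, 42317 and 41545. Srpr, the receptor that docks ribosomes to the membrane, read 28938, 34276, 35052 and 33768. Spcs1 showed no pool apart, whereas pool 1 was lowest for the other two. Rrbp1, the ribosome-binding protein, read 34957, 37103, 36365 and 39868. Ssr3 and Ssr4, subunits of the complex associated with the translocon, behaved differently from each other: Ssr3 read 29696, 36240, 38708 and 38323, and Ssr4 read 38678, 31631, 32697 and 32472. Pool 1 was thus the lowest for Ssr3 and the highest for Ssr4. Sec61b, a subunit of the channel itself, read 20661, 20532, 24896 and 28553, while Sec61a1, its pore-forming subunit, ranked 217 and was no member, at 13460, 24930, 17910 and 22520 with pool 1 the lowest. The signal peptidase subunits Sec11c, Spcs2 and Spcs3 lay at 31787, 25717 and 24398.

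Several folding proteins were also lowest in pool 1. P4hb, protein disulfide isomerase, read 56326, 59020, 68672 and 65435. Hspa5, the chaperone BiP that binds unfolded chains and holds the stress sensors inactive, read 24818, 42511, 38922 and 41002. Calr, calreticulin, which retains glycoproteins until they are folded, read 34738, 45809, 44077 and 44927. In Hspa5 and Calr, pools 2 to 4 lay close together and pool 1 stood below them all. Manf, a secreted neurotrophic factor that binds BiP, read 16257, 30143, 20166 and 24591. Rpn1, the ribophorin of the oligosaccharyltransferase, read 17437, 25928, 25251 and 26091. Canx, calnexin, the membrane-bound partner of calreticulin, did not share the pattern and read 28733, 30144, 25429 and 25322. Ppib, a prolyl isomerase of the lumen, read 46547, 48341, 49021 and 43123, and Qsox1, a sulfhydryl oxidase, read 34358, 32907, 26292 and 24687. Of the folding proteins whose transcripts are textbook markers of the secretory load, Pdia3 at rank 278, Hsp90b1 at rank 457 and Sdf2l1 at rank 1854 were not members.

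The stress response was represented by its regulators. Xbp1, activated by splicing when unfolded proteins accumulate, read 79104, 80308, 80203 and 72694. Atf4, the factor translated when initiation is restrained, read 17200, 22404, 23620 and 23769. Herpud1, which assembles the degradation complex, read 27932, 36130, 35251 and 40338. Pool 1 was lowest for Atf4 and Herpud1 but not for Xbp1, for which pool 4 was lowest. Serp1, which protects membrane proteins during stress, read 53565, 64811, 60560 and 61803. Tmbim6, a membrane protein that restrains cell death, read 20920, 23416, 35370 and 33220, with pools 1 and 2 below pools 3 and 4. Bhlha15 (Mist1), the transcription factor that builds the secretory architecture of serous cells, was a member at 35227 ± 3774 (SD, n = 4), and Elf5, a factor of gland epithelium, read 28649, 27070, 27593 and 24724.

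For transport to the Golgi, Rab1a, a GTPase for vesicle tethering, read 34872, 50397, 42319 and 44280. Sec23b, a subunit of the coat of exporting vesicles, read 21811, 39861, 24516 and 33369, with pools 1 and 3 low. Tmed3, a cargo receptor, read 28105, 27504, 21202 and 19483, with pools 1 and 2 high. Sar1b, the GTPase that starts the coat, had the narrowest range of these 4, at 23522 ± 1448 (SD, n = 4).

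Counted over the group, 20 of the 32 endoplasmic reticulum members (62.5%) had their lowest signal in pool 1. Among other genes of the same list that lay above the median gene, 65 of 104 (62.5%) did so. Among ribosomal members it was 1 of 35 (2.86%), and among other genes above the median gene 1611 of 6060 (26.6%). The median member of the endoplasmic reticulum lay 0.13 below its own mean on the log2 scale in pool 1 and 0.05, 0.02 and 0.04 above it in pools 2 to 4. The class held 1.94%, 2.25%, 2.14% and 2.17% of the signal. The ratio of signal at the 3′ end to that at the 5′ end, a measure of RNA integrity, was 2.69, 2.82, 2.9 and 2.59 for beta-actin and 1.13, 1.14, 1.17 and 1.19 for Gapdh, so pool 1 did not stand apart in it. Pool 1 did hold the most olfactory neuron signal, with Omp, the olfactory marker protein, at 3323 against 703 to 1514 in the other pools. Its part in the result was not tested.

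**Figure D3:**
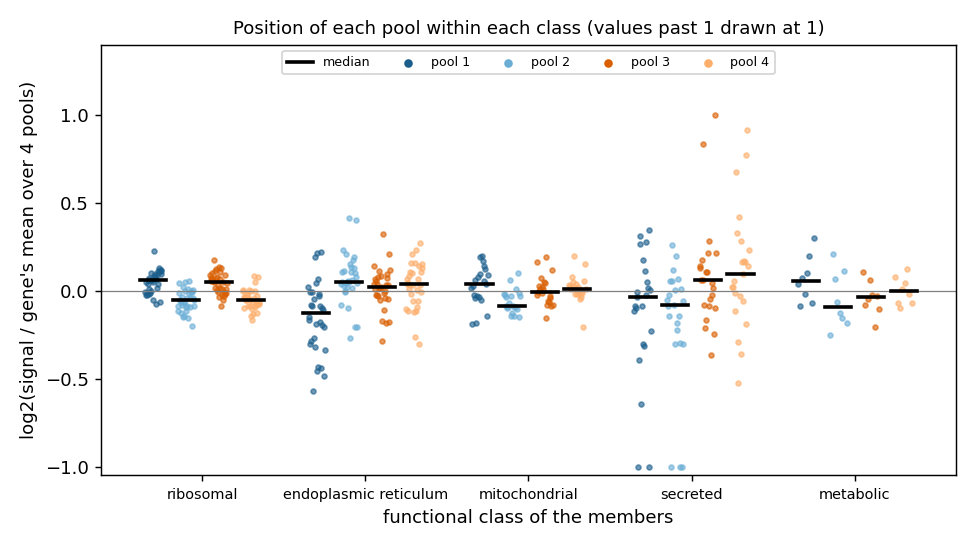
Log2 deviation of each member from its own mean over the 4 B6 pools, by class and pool (points are genes, black bars the class median in a pool, and the few points past the axis are drawn at its edge). The endoplasmic reticulum median is -0.13 in pool 1, while ribosomal medians alternate between 0.06, -0.05, 0.05 and -0.05.

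The promoters of the endoplasmic reticulum members were examined for the stress response element through which Atf6 and Xbp1 act with the factor NF-Y on chaperone genes. RefSeq promoters of GRCm38.p6, from 250 bases before to 50 after the start, were held for 162 of the 200 members, 25 of them of the endoplasmic reticulum. The element, CCAAT and CCACG with 9 bases of any kind between them, was searched on both strands and occurred in 3 of these 25, Calr, Canx and Hspa5, against 37 of all 27025 genes in the table (0.137%) and 0 promoters of the other member classes. In the list of endoplasmic reticulum genes as a whole it occurred in 10 of 118 (8.47%). The 250 bases before the start are shown because they place the element in the 3 chaperone genes. Of these, 2 had their lowest signal in pool 1, as had 62.5% of all endoplasmic reticulum members. A link between the element and the signal in pool 1 was not tested. Capitals mark the element, which in Calr lies on the opposite strand. Calr lies at chr8:84846932-84847181 on the minus strand, Canx at chr11:50325674-50325923 on the minus strand and Hspa5 at chr2:34771840-34772089 on the plus strand.
Calr: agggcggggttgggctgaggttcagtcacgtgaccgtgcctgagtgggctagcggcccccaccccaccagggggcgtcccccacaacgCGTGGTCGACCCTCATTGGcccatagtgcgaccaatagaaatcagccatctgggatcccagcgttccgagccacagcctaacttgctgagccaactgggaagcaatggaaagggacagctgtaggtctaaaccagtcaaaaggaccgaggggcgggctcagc
Canx: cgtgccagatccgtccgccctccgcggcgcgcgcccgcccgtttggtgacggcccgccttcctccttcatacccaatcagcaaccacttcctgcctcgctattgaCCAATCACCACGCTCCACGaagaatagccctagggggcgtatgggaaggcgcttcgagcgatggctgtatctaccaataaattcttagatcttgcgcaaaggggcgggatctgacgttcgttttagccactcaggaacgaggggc
Hspa5: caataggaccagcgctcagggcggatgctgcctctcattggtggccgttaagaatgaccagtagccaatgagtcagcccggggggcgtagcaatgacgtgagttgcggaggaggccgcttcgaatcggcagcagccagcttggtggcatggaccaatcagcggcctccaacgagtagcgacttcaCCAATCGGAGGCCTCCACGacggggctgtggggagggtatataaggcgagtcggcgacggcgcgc
The element ended 144 bases before the start in Calr, 127 in Canx and 47 in Hspa5. The shorter element TGACGTGG, also searched on both strands, occurred in 0 of the 25 promoters, in 7 of the 118 of the whole endoplasmic reticulum list (5.93%), in 4 of 66 of the members outside the 5 classes (6.06%) and in 0.714% of all genes. The E-box CATATG, the form bound by Mist1, occurred in 0 of 25 and in 2 of the 118 (1.69%). Its share was 2.58% of 9882 genes ranked on the array and 4.48% of all genes. With 25 promoters, shares of this size cannot be told from 0. A match is a description of the letters and not a site shown to act in the gland.

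Ribosomal proteins were the most numerous class and the steadiest. Their median coefficient of variation was 5.46%, and it ranged from 2.61% for Rps7 to 11.5% for Rpl38. Rpl41, the smallest protein of the ribosome, read 115197, 108912, 123419 and 115545. Rps3a1 read 107907, 95926, 108036 and 104300. Rps7 read 81598, 79125, 83837 and 79770. In these 3 genes pool 3 was the highest and pool 2 the lowest, and over the class pool 2 was lowest in 19 and pool 4 in 14 of 35 members, and pools 1 and 3 were each highest in 16. Pool 2 was lowest in 33.5% and pool 4 in 21.5% of all 200 members, and in 27.6% and 25.5% of all genes. The differences between pools within the ribosomal class were small, with medians of 0.06, -0.05, 0.05 and -0.05 on the log2 scale. Rpl38, the most variable, was high in pool 1 at 73095 and between 57700 and 61066 elsewhere. The class depends strongly on the probe sets counted. Ribosomal protein genes have many processed copies in the genome, whose part in this was not tested. With the probe sets annotated to several symbols admitted, the class grew to 77 members and 9.87% of the signal. Without probe sets whose names mark them as matching several transcripts it fell to 6 members and 0.538%.

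Many ribosomal protein transcripts begin at a run of pyrimidines, through which cells couple their translation to growth signals. In the 30 ribosomal members with a promoter in the table, the longest run of C and T within 5 bases of the start had a median length of 6.5 bases, against 4 in all genes, and 14 (46.7%) had a run of 8 or more, against 11.0% of all genes and 4.0% of endoplasmic reticulum members. The longest runs that lie wholly within 30 bases around the start are shown, with the run in capitals. Rpl7a lies at chr2:26910792-26910821 (plus strand), Rpl35 at chr2:39005117-39005146 (minus), Fau at chr19:6057932-6057961 (plus) and Rps10 at chr17:27635230-27635259 (minus), all in GRCm38.p6.
Rpl7a: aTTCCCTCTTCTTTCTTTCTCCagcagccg
Rpl35: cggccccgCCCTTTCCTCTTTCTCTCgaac
Fau: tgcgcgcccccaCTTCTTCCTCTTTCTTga
Rps10: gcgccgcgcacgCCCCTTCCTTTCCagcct
The runs are 21, 18, 16 and 13 bases long, in that order. Rpl7a, a protein of the large subunit, read 86820, 79622, 86431 and 80279, and Rpl35, also of the large subunit, read 84263, 75580, 80994 and 79016. Both were higher in pools 1 and 3 than in pools 2 and 4.

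Cytosolic translation factors stood beside the ribosome, with 12 members of 57 measured and 1.29% ± 0.055 of the signal. Eef1a1, which brings charged tRNA to the ribosome, ranked 2 and read 147672, 148409, 164496 and 138471. Tpt1, a growth-associated protein whose transcript is controlled like those of the ribosome, read 123648, 124703, 137781 and 122610. Pool 3 was the highest for both. Eef2, which moves the ribosome along, and Pabpc1, the poly(A)-binding protein, lay at 50991 and 68846, and Eif3c, a subunit of an initiation factor, varied by only 2.11%. Eif4g2, an initiation factor used when cap-dependent translation is limited, was low in pool 1 at 26417 and between 38729 and 40123 elsewhere.

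Mitochondrial members were nearly all subunits of oxidative phosphorylation, 17 of 21, and their share was the least variable of the 5 classes relative to its size, at 1.36%, 1.31%, 1.35% and 1.37% in pools 1 to 4. Uqcrb, a subunit of complex III, read 78564, 76796, 76442 and 79584. ND5, a subunit of complex I encoded in the mitochondrial genome, read 62164, 69692, 79146 and 71990. Slc25a3, which carries phosphate into the matrix for ATP synthesis, read 45981, 43974, 44904 and 45333. Uqcrb and Slc25a3 varied by under 2%, while pool 1 was low and pool 3 high for ND5. Cox7a2, a subunit of cytochrome oxidase, lay at 41814 ± 2008 and Atp5g3, which forms the rotor ring of ATP synthase, at 32864 ± 1768 (SD, n = 4). Slc25a5, an exchanger of ADP and ATP, read 28154, 30462, 32480 and 36681 and was the most variable at 11.3%. In 11 of the 21 members pool 1 was highest, and in 11 pool 2 was lowest. Pool 2 was also lowest in 33.5% of all members and 27.6% of all genes, and no such share is given for the highest pool.

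Metabolic enzymes contributed 8 members. Cyp2f2, a cytochrome P450 of nasal and airway secretory cells that oxidizes foreign compounds such as naphthalene, read 72946, 59529, 76462 and 74892. It was the only P450 among the members of 68 P450 and partner genes measured, whose median signal was 182. A probe set that matches Cyp2a4 as well as Cyp2a5, and so was not ranked, read 66851, 37581, 67828 and 90653. Cyb5a, the cytochrome b5 that passes electrons to P450 enzymes, read 26485, 18976, 20044 and 20526. Cbr2, a carbonyl reductase that is also a marker of olfactory supporting cells, read 35727, 28016, 27033 and 34012. Pool 2 was lowest for Cyp2f2 and Cyb5a and pool 3 for Cbr2, and pool 1 was highest for Cyb5a and Cbr2. The 4 measured markers of olfactory supporting and Bowman gland cells summed to 44280, 30177, 30756 and 39340, with Cyp2g1 at 5917, 748, 2007 and 2799. The part of olfactory tissue in these signals was not tested.

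The other enzymes served general metabolism. Asns, asparagine synthetase, a target of Atf4, read 41845, 51500, 42133 and 42406, with pool 2 alone high. Akr1a1, an aldehyde reductase, read 39641, 38391, 41902 and 40413. Nme2, a nucleoside diphosphate kinase, lay at 41375 ± 2404, Gpx1, which reduces hydrogen peroxide with glutathione, at 34630 ± 2312, and Etnk1, which phosphorylates ethanolamine for phospholipid synthesis, at 22634 ± 1257 (SD, n = 4).

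Ion and water channels and pumps, some of which drive fluid secretion, made up 7 members of 122 measured. They held 0.374% ± 0.0227 of the signal, and Lrrc26 and Atp2a2 were placed among them by hand. Aqp5, the water channel of the apical membrane, read 25431, 26322, 23883 and 25875. Slc12a2, the cotransporter that loads chloride into the cell, read 18343, 18965, 31213 and 26619. Atp1b1, a subunit of the sodium pump, read 18199, 18230, 23828 and 27596. Aqp5 was steady, whereas Slc12a2 and Atp1b1 were lower in pools 1 and 2 than in pools 3 and 4. Lrrc26, which sensitizes potassium channels of secretory epithelia, lay at 31953 ± 2022, and the calcium pumps of the endoplasmic reticulum Atp2a2 and Atp2a3 lay at 39308 ± 4327 and 27571 ± 1684 (SD, n = 4).

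Spread over pools was small for most members. The median coefficient of variation was 7.45%, against 9.34% in the next 800 genes, 10.8% in the 2000 genes after those and 21.2% over all genes. Only 19 members (9.5%) differed by more than 1.5-fold between their highest and lowest pool, against 57.2% of all 12393 genes and 83 of the next 800 (10.4%). The share among the members was thus close to that of the genes ranked next to them. Of the 19, 10 were secreted proteins, 4 belonged to the endoplasmic reticulum and 5 to the other genes, and the ribosomal, mitochondrial and metabolic classes had 0. In 10 of the 19 both of pools 1 and 2 lay below pools 3 and 4, and in 3, Igha, Pip and Clu, they lay above. No share over the other members or all genes is set beside these counts, which describe only the 19. Bpifa1 was among the 10 only narrowly, with 29108 in pool 1 and 29161 in pool 3. The 5 other genes were Bbip1, Tuba4a, Eif4g2, Slc12a2 and Atp1b1. Past 2-fold were 4 members, Mup5, Scgb2b27, Bpifa1 and 2310057J18Rik, all of them secreted. At the other end 44 members varied by under 5%, with Pebp1, a phosphatidylethanolamine-binding kinase inhibitor, the steadiest at 34334, 35336, 35717 and 35010 (1.67%). The median was 17.7% for secreted members, 9.34% for endoplasmic reticulum, 8.61% for metabolic, 6.51% for mitochondrial and 5.46% for ribosomal members.

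**Figure D4:**
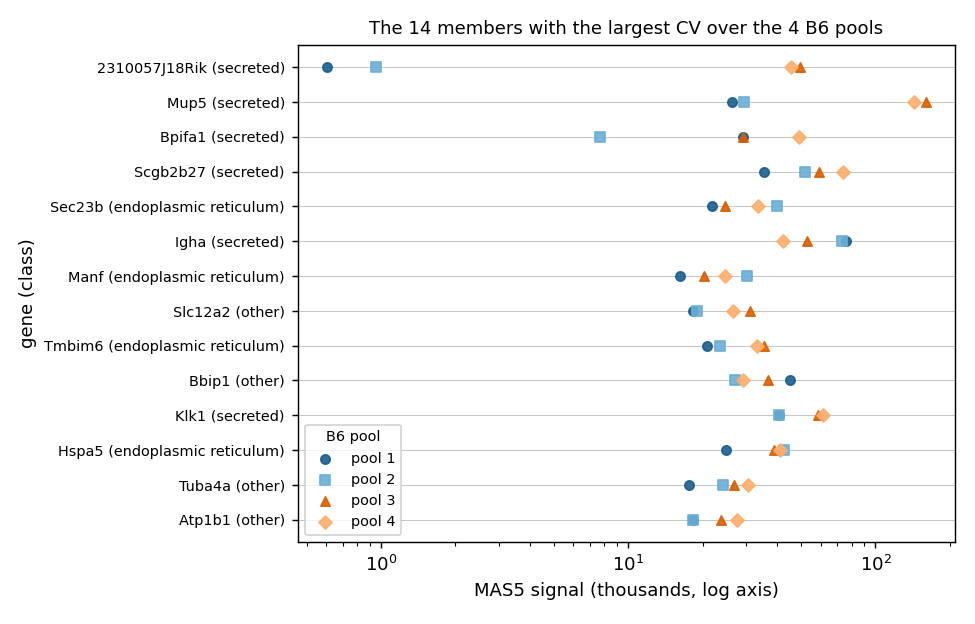
Signal (log scale) in each of the 4 B6 pools for the 14 members with the largest coefficient of variation, ordered by it. 2310057J18Rik spans 607 to 49675 and Mup5 26292 to 159511, both with pools 1 and 2 apart from pools 3 and 4, while Bpifa1 is low in pool 2 alone, at 7655.

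The list was largely the same in each pool taken alone. Of the 200 members, 184, 186, 193 and 192 were among the 200 highest genes of pools 1 to 4, and 167 were so in all of them. The mean of these same pools chose the members, so this overlap is partly built in. The arrays of the other mice had no part in the choice. On the arrays of the other mice, 176 and 182 members were among the 200 highest in 129/Sv and 179, 179 and 181 in Cyp2g1-null glands, and 154 were so on all 9 arrays. The members held 15.8% to 16.9% of the signal on those 5 arrays. No contrast between the groups was made.

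At the edge of the list the signals ran on without a gap. Eif3a and Eif3e, subunits of an initiation factor, and Ap3s1 stood just inside at 21180, 21070 and 20970, and Plet1, Ndufb11 and Ndufa1, the latter 2 of them subunits of complex I, just outside at 20910, 20840 and 20790. The pools of Ap3s1 read 17150, 21120, 21920 and 23700, so pool 1 alone would have placed it lower. Beside the members, 99 probe sets with several symbols and 30 with none lay at or above the lowest member. Of the former, 70 were annotated to a ribosomal protein, and together they held 10.3% ± 0.306 of the signal.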

How the data were processed

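RNA from 4 pools of wild-type B6 glands, and for reference from 5 pools of the other mice, was hybridised to 1-colour Affymetrix arrays. The authors deposited linear signal intensities. MAS5 is the tool that the submitters' processing notes name, without a version. With 2% trimmed at each end, array means were 1481.6 to 1483.4, and array medians were 518.6 to 550. The deposited arrays thus share a scale, and a share of signal is a share of that scaled total. Detection calls were not used, and whether the brightest signals were compressed was not tested. Precision is limited by the number of arrays.

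Of 22690 probe sets, 64 controls were left out. Of the other 22626, 20380 had 1 symbol in the platform annotation, 691 several and 1555 none, and the RefSeq table of GRCm38.p6 changed 0 symbols. Only those with 1 symbol were ranked, and the total includes all 22626. Members were grouped by lists of gene names and, for 42 members outside those lists, by hand, while 19 stayed unassigned, and the members, lists and classes were chosen with earlier results of these data known. The rule for named genes took the 4 markers, the 20 highest members, the 8 highest of each class, the 5 most and 5 least variable members, 3 genes on each side of the edge of the list, the 3 highest genes of each cell type list and all endoplasmic reticulum members. Other genes named were chosen after their values were seen.

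No test between groups was run, since the signals chose the members, and Dixon's test served only to point out single pools far from the others. Shares, means, SDs and ratios were computed from the deposited intensities with Python 3.11.15, pandas 2.3.3 and numpy 2.4.6, and the ranking was tested on simulated data. Promoter sequences were matched to members by gene ID, and the list of endoplasmic reticulum genes was built from symbols. The alternatives were another summary over pools (median, log2 mean with 16 added), rescaling of the arrays, the mean over a gene's probe sets, other treatments of probe sets that match several transcripts or symbols, other list lengths, other totals, and leaving out each pool.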

Additional observations from a re-analysis of the deposited data

Results flagged for a closer look

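In 10 of the 119 genes named by the rule (8.4%), and in 13 of the 200 members (6.5%), 1 pool stood so far from the others that its gap to the nearest, as a share of the whole range, exceeded the critical value of Dixon's test for 4 samples. Chance sets apart about 1 in 20 groups.

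Pool 1 was apart in 4 genes. Calr was low there at 34738, with 44077 to 45809 in the other pools, and Rpn1 was low at 17437, with 25251 to 26091 in the others. Krt8, a keratin of simple epithelium, was low at 8228, with 9220 to 9383. Ssr4 was high at 38678, with 31631 to 32697.

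Pool 2 was apart in 3 genes. Asns was high at 51500, with 41845 to 42406 in the others, and Atp5b, the catalytic subunit of ATP synthase, was high at 31355, with 29473 to 29792. Krt19, a duct keratin, was low at 1219, with 1584 to 1612.

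Pool 3 was apart in Tpt1, high at 137781 with 122610 to 124703 in the others, and in Mbp, the myelin basic protein of nerve, high at 1378 with 1106 to 1141. Pool 4 was apart in Xbp1, low at 72694 with 79104 to 80308 in the others.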

How the results depend on the processing

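Of 221 alternative values for 13 results, 159 moved by less than the spread over pools (for counts, by less than 1.5 times) and 62 moved further. For the median coefficient of variation the limit was its SD over the 4 fits that leave out a pool, 0.771. Some of the 159 could not move, since changing only the total leaves the members, their class counts and the coefficient as they were. The number kept is thus no measure of stability by itself. No paired analysis was possible because no result came from a test between groups. Of the members, 164 were shared when each gene took the mean of its probe sets, 144 with probe sets of several symbols admitted and 96 without those matching several transcripts. In that order, the members' share was 13.8%, 21% and 10.2%, the ribosomal share 3.42%, 9.87% and 0.538%, the endoplasmic reticulum share 1.66%, 1.76% and 1.46%, the mitochondrial share 1.18%, 1.1% and 0.912%, and the metabolic share 0.545%, 0.696% and 0.409%. The secreted share was 2.07% without them, the ribosomal members numbered 77 with several symbols and 6 without, and the median coefficient of variation was 6.53% and 9.17%. By construction, the 100 highest genes were all members, and the 400 highest held all 200 members. The shares of the 100 and 400 highest were 11.9% and 23% in all, 1.16% and 2.82% for the endoplasmic reticulum, 0.531% and 2.27% for mitochondria, 2.49% and 3.14% for secreted proteins and 0.449% and 0.891% for metabolism, with 4.16% ribosomal in the 100. They held 13 and 56 endoplasmic reticulum, 5 and 50 mitochondrial and 5 and 18 metabolic members, and the coefficient was 8.49% in the 400. Counting only signal above the array median gave 17.7% in all, 4.58% ribosomal, 1.4% mitochondrial and 0.622% metabolic; with a total of 1 probe set per gene, the shares were 29.4%, 7.62%, 2.34% and 1.04%, with 3.69% for the endoplasmic reticulum and 4.96% secreted. The median over pools gave 0.554% metabolic. Without 1 pool at a time, 195 to 197 members were shared, and the shares were 16.7% to 17.1% in all, 4.34% to 4.43% ribosomal, 2.04% to 2.23% for the endoplasmic reticulum, 1.34% to 1.46% mitochondrial, 2.7% to 2.94% secreted and 0.55% to 0.635% metabolic, with a coefficient of 6.02% to 7.78%. A pair of settings was chosen after seeing the data. Pools 1 and 2 alone kept 190 members and gave 1.46% mitochondrial, 0.639% metabolic and a coefficient of 5.92%; pools 3 and 4 alone kept 196 and gave 0.554% metabolic and 4.6%. The cause of these shifts was not tested, beyond what each setting adds or leaves out.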

Other observations

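Several members belonged to none of the 5 classes. The transcription regulators Klf9, a factor induced by glucocorticoids, and Nupr1, a stress-induced chromatin protein, lay at 34104 ± 2006 and 34592 ± 3854 (SD, n = 4). Of the markers of other cell types, Cbr2, Lyz2, Col1a1 and Col1a2 were members. Ciliated cell markers summed to 15394, 12367, 13948 and 12523 in pools 1 to 4 over 7 genes, and markers of nerve and glia to 7982, 8411, 9409 and 9122 over 4 genes, with Sox10 the highest, a factor of glia that serous glands also express, at 7371 ± 575. Markers of macrophages and neutrophils summed to 33164, 32321, 31343 and 34646 over 8 genes, of which Lyz2 was a member. Endothelial and stromal markers summed to 91272, 76126, 94368 and 94863 over 8 genes, with Col1a1 and Col1a2 as members. Most of this sum came from the stromal genes Col1a2, Col1a1, Dcn and Col3a1. The endothelial markers Pecam1 and Cdh5 lay below the median gene, with means of 533.1 and 382.5, and Kdr lay above it at 1003.8. Basal and duct markers summed to 35060, 33558, 32989 and 32649, mostly from Krt18, the highest at 19990, and Krt8. Of the basal markers, Krt14, Trp63 and Krt15 lay below the median gene, with means of 371.8, 330.7 and 294.3, and Krt5 lay above it at 931.5. Cartilage and bone markers lay at 3253 to 3817 in all and those of adipocytes at 728 to 1265. Muscle, T cell and erythroid lists lay between 229 and 2038 in every pool, and of these the erythroid list was the most uneven, at 1245, 229, 1336 and 623. The 3 erythroid genes measured all lay below the median gene. The far brighter shared globin probe sets had another pool order, with 27347, 24766, 41326 and 41131 for the brightest. The erythroid sum is therefore no guide to blood content by pool.

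Neighbouring genes occurred among the members. In the RefSeq annotation of GRCm38.p6, 14 pairs of members had at most 4 protein-coding genes between them. Lyz2 and Lyz1, Scgb2b27 and Scgb1b27, and Dstn and Rrbp1 had 0 genes between them.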
